A study of Homo sapiens with 30 samples.

Results

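Cells sorted as negative for integrin β4 were compared across a porous membrane: 3 libraries of cells that had come through it in 10 rounds of migration (Bottom10-ITGB4neg, replicates 1 to 3) against 3 libraries of cells that had stayed above it in 10 rounds (Top10-ITGB4neg, replicates 1 to 3). The groups were taken by library title and make up 6 of the 30 libraries of the series. Titles and sample labels give 10 rounds, which is followed here, while the text on the design of the series names 5. The groups are called crossed and uncrossed cells. All are A375, an established human melanoma line, sampled as whole sorted populations and not as clones, and neither group carries an added gene or a drug. Per the labels, the pores were 5 µm wide, the underside of the membrane was coated with fibronectin, cells above or below were grown up again between rounds, and the negative gate was set on cells left unstained by the anti-ITGB4 antibody. The side of the membrane and a separate culture history over 10 rounds go together in this design and cannot be told apart. Reference values come from parental negative cells (3 libraries, no migration) and from the same comparison among cells sorted as ITGB4-positive (3 against 3, 10 rounds), which shares no library with the negative sort. The comparison asks which transcripts separate cells that pass a constriction from cells that do not when surface ITGB4 is low in both.

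Integrin β4 pairs with integrin α6 to bind laminin in basement membranes and anchors keratin filaments in hemidesmosomes. A cell that squeezes through a pore narrower than its nucleus has to deform the nucleus, pull on matrix through integrins and actomyosin, and loosen its contacts. Melanoma cells are known to move between a pigmented, SOX10- and MITF-driven state and a dedifferentiated, invasive state with high AP-1 and YAP/TEAD activity.

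The 6 libraries held 17278398 to 29134945 counts assigned to genes, and 17352 to 18288 genes had at least 1 count in each. Uncrossed replicate 1 stood apart from the other 5 libraries. Its 50 top genes took 14.4% of its counts against 11.4 to 13.2% in the others, ribosomal protein genes 105190 CPM (counts scaled to library size) against 58863 to 82873, and its score on the second principal component of all libraries was 45 against -19.5 to 0. Results that rest on it are given with and without it. As to cell identity, SOX10 (768 to 1460 CPM) and MITF (33.5 to 45.3 CPM) were present in all 6 libraries, so the melanoma label held for these lineage factors. Pigment genes were low: MLANA and TYR were at or under 0.23 CPM, PMEL lay between 0.622 and 1.21 CPM, and DCT between 0.867 and 12.1 CPM. CD3E and MS4A1, markers of T and B cells, had 0 counts in all 6. Markers of keratinocytes and endothelium were partly present, and their values stand beside the results they touch. The 8 fibroblast markers were partly present too, summing to 28.2 to 49.4 CPM in crossed and 22.0 to 33.35 CPM in uncrossed cells. Of the 6 tested, 5 were higher in crossed cells and 1 lower. COL1A1 had means of 5.24 CPM in crossed and 2.20 CPM in uncrossed cells, and PDGFRA 2.88 and 3.60 CPM. The part of these markers in the matrix results was not tested. RNA was measured in bulk, so fewer cells of a kind and less RNA per cell cannot be told apart.

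Crossed negative cells differed from uncrossed ones in 205 of 15381 genes tested by edgeR's quasi-likelihood test (1.33%, adjusted p under 0.05, "called" from here on), 146 higher (0.949%) and 59 lower (0.384%). Called genes that were higher had a median change of 2.49 on the log2 scale and 95 of 146 exceeded 4-fold. Those that were lower had a median size of 1.91, and 26 of 59 exceeded 4-fold. The median over all genes tested was -0.01. The labels number the libraries as biological replicates without stating separate cultures, and p-values measure only the spread between these samples. Without uncrossed replicate 1 the count was 96 (0.615%), with 68 higher (0.435%) and 28 lower (0.179%), without uncrossed replicate 2 it was 107, and without crossed replicate 2 it was 91. In all, 69 genes (51 higher, 18 lower) kept the call whichever of the 6 libraries was left out.

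Libraries with the same replicate number resembled each other across the membrane, and an edgeR fit that also holds the replicate number ("paired fit") called 1587 of 14289 genes (11.1%), 878 higher (6.14%) and 709 lower (4.96%). It contained 199 of the 205, and 55.3% of its calls were higher, against 71.2% without pairing. At an unadjusted p under 0.05, the unpaired edgeR fit held 1391 genes (9.04%). The paired fit uses the 6 libraries only, while the unpaired fit shares its spread over all 30. An edgeR fit of the 6 libraries without the replicate number called 157 genes. The 3 crossed libraries lay apart from the 3 uncrossed ones in 16.1% of all genes tested, wholly above in 8.68% and wholly below in 7.43%, and in all 205 called genes. Genes called in the paired fit and not without the replicate term are described as called in the paired fit only. List shares in the paired fit are over the members tested without pairing, a base on which 10.3% of all genes were called.

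ITGB4 itself differed in call between the fits. Its level was 5.12, 13.3 and 3.72 CPM in uncrossed replicates 1 to 3 and 34.7, 87.8 and 24.6 CPM in crossed replicates 1 to 3, although all 6 populations had been sorted as negative for the surface protein. The groups did not overlap, replicate 2 was highest on both sides, and within equal numbers the rise was 6.78-, 6.60- and 6.61-fold. The log2 fold change was 2.73 ± 0.90 without the term in the fit of all 30 libraries (edgeR adjusted p = 0.187). It was 2.74 in the paired fit of the 6 libraries (edgeR adjusted p = 1.46e-06). A fit of the same 6 libraries without the term gave 2.74 ± 0.605 (edgeR adjusted p = 0.0871). The values 0.187 and 1.46e-06 therefore differ by more than the term. Parental negative cells held a mean of 27.8 CPM, between the uncrossed and the crossed mean of 7.38 and 49.0. Of 11 genes for ITGB4 and its hemidesmosome partners none was called without the term, beside 1.33% of all genes. In the paired fit only, 3 were called higher (27.3%, beside 6.14% of all genes), among them ITGB4 and ERBB2IP. ERBB2IP, which encodes the ITGB4-binding protein erbin, went from 71.2, 108 and 97.4 CPM to 152, 237 and 143 CPM. ITGA6, the partner chain, had 232, 333 and 419 CPM against 409, 404 and 452 CPM and was called in neither fit (edgeR adjusted p = 0.871 and 0.143).

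**Figure D1:**
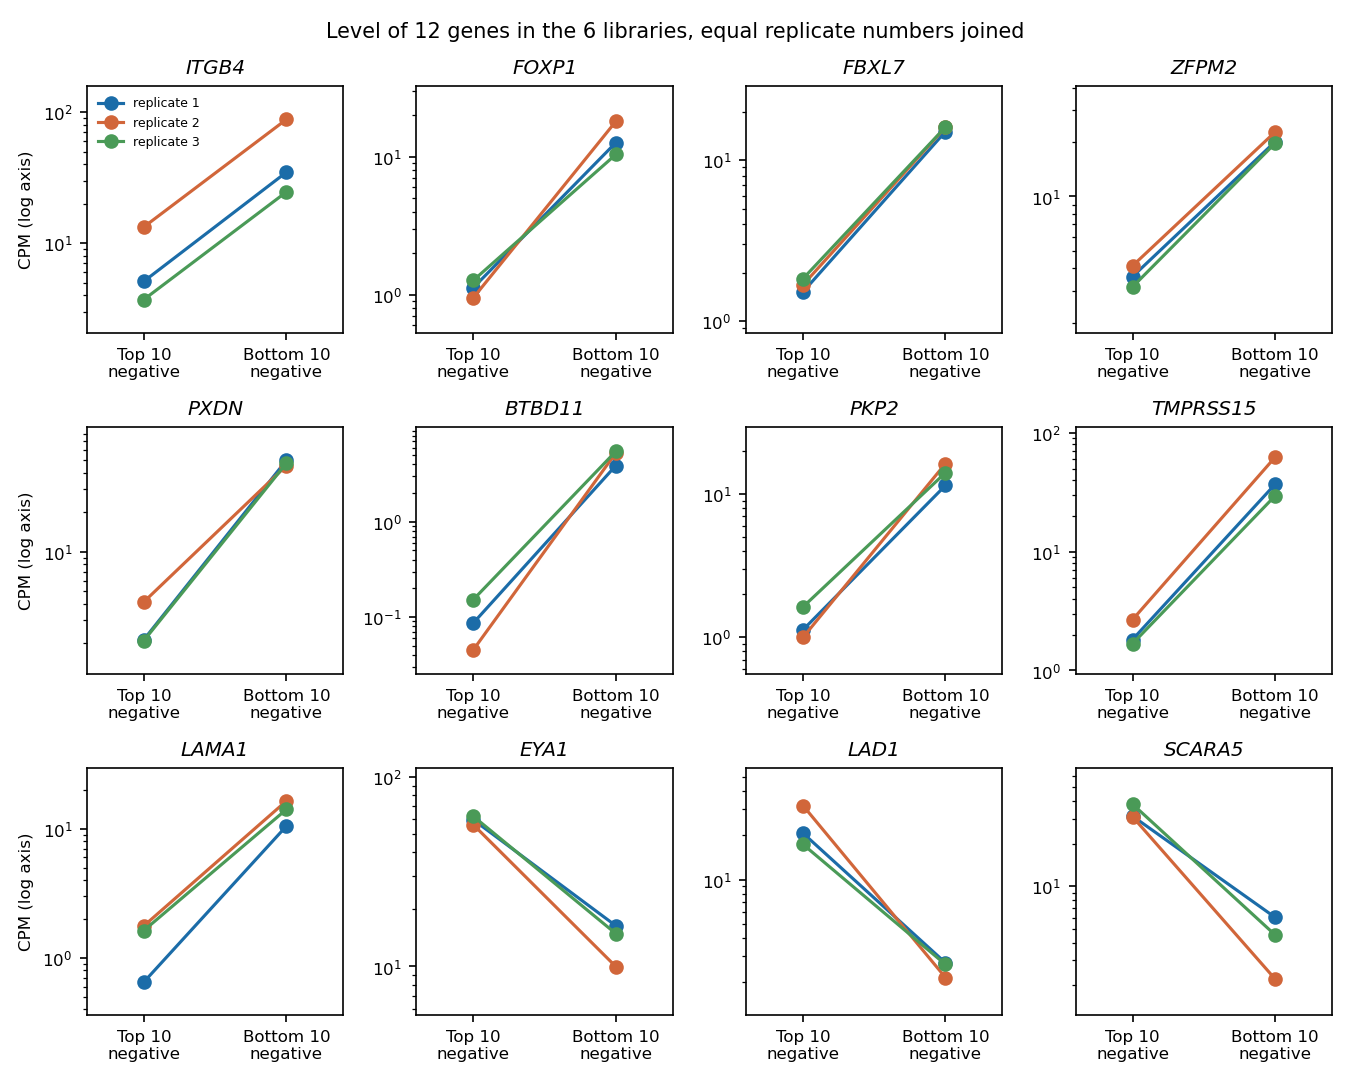
CPM (log axis) of 12 genes in the 3 uncrossed (Top 10 negative, left) and 3 crossed (Bottom 10 negative, right) libraries, each point 1 library and each line joining equal replicate numbers. ITGB4 lines run nearly parallel at different heights, while the other 11 genes shown separate the sides by more than replicates differ.

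Several regulators were among the genes with the smallest p. FOXP1, a forkhead transcription factor, had 1.13, 0.953 and 1.27 CPM in uncrossed and 12.6, 18.0 and 10.4 CPM in crossed cells (log2 fold change 3.61 ± 0.35, edgeR adjusted p = 1.12e-06). For FBXL7, an F-box protein that picks targets for ubiquitination, the values were 1.52, 1.68 and 1.83 CPM against 15, 16 and 16 CPM (3.22 ± 0.30, edgeR adjusted p = 1.12e-06). For ZFPM2, a zinc finger protein that binds GATA factors, they were 3.60, 4.13 and 3.16 CPM against 20.1, 22.7 and 19.7 CPM (2.52 ± 0.23, edgeR adjusted p = 1.12e-06). In each of the 3 the lowest crossed library lay far above the highest uncrossed one. BTBD11, an ankyrin and BTB domain protein, rose from 0.0867, 0.0454 and 0.153 CPM to 3.90, 5.30 and 5.50 CPM (5.63 ± 0.55, edgeR adjusted p = 1.12e-06). ARNTL2, a paralog of the circadian factor BMAL1, changed by a smaller step, from 7.98, 9.30 and 7.94 CPM to 21.4, 22.5 and 25.3 CPM (1.46 ± 0.16, edgeR adjusted p = 1.07e-05). All 5 kept the call in each of the 6 fits with a library left out.

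Matrix and basement membrane genes moved in both directions. PXDN, the peroxidase that crosslinks collagen IV in basement membranes, rose from 2.12, 4.13 and 2.09 CPM to 49.9, 45.5 and 47.4 CPM (4.09 ± 0.40, edgeR adjusted p = 1.12e-06). The crossed libraries lay within 45.5 to 49.9 CPM, and parental negative cells (10.6 CPM) lay between. LAMA1, a laminin chain, rose from 0.650, 1.77 and 1.63 CPM to 10.5, 16.4 and 14.1 CPM (3.34 ± 0.52, edgeR adjusted p = 0.000706). LAD1, an anchoring filament protein of basement membranes, moved against both, from 20.7, 31.9 and 17.4 CPM to 2.71, 2.15 and 2.64 CPM (-3.22 ± 0.59, edgeR adjusted p = 0.00335). These 3 were the called genes among 25 of the basement membrane list (12%, beside 1.33% of all genes). The list had a median log2 fold change of -0.12, with 10 higher and 15 lower. All 3 called genes kept the call with each library left out.

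Of 38 interstitial matrix genes 4 were called, all higher (0.949% of all genes), and the paired fit called 12 higher and 8 lower (52.6%, beside 11.1% of all genes). COL13A1, a transmembrane collagen, had 5.33, 3.90 and 3.11 CPM in uncrossed and 18.9, 24.9 and 22.3 CPM in crossed cells (2.42 ± 0.41, edgeR adjusted p = 0.0017), and was the 1 member of the list still called without uncrossed replicate 1. COL12A1, COL5A2 and POSTN lost the call without that library and without crossed replicate 2. COL12A1 also lost it without uncrossed replicate 2 or crossed replicate 3, COL5A2 without uncrossed replicate 3 or crossed replicate 1, and POSTN without uncrossed replicate 3, with edgeR adjusted p up to 0.191, 0.118 and 0.0602 over the fits with 1 library left out. FN1, the fibronectin gene, was called in the paired fit only: it had 91.3, 172 and 54.7 CPM in uncrossed and 330, 373 and 159 CPM in crossed cells, where uncrossed replicate 2 exceeded crossed replicate 3. ADAMTSL1, a secreted matrix protein related to the ADAMTS proteases, rose from 0.650, 0.635 and 0.916 CPM to 6.78, 16.2 and 11.7 CPM (3.98 ± 0.67, edgeR adjusted p = 0.0016). PTX3, a secreted pattern recognition protein that binds matrix, rose from 1.73, 0.544 and 2.80 CPM to 10.6, 36.2 and 16.5 CPM (3.65 ± 0.66, edgeR adjusted p = 0.00322). Among proteases ADAMTS1 was the 1 called of 35 metalloproteinase, ADAMTS and TIMP genes (2.86%, beside 0.949% of all genes called higher). ADAM19 and ADAMTS12 were called higher in the paired fit only. The ADAMTS1 call was lost without replicate 1 of either side (edgeR adjusted p up to 0.0688).

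The list of PDGF, VEGF and other angiogenic factors and their receptors gave 5 called of 22 genes (22.7%), all higher, beside 0.949% of all genes, and the paired fit called 10 higher and 1 lower. PDGFB, the B chain of platelet-derived growth factor, had 0.173, 0.272 and 0.255 CPM in uncrossed and 6.33, 13.5 and 5.85 CPM in crossed cells (5.17 ± 0.63, edgeR adjusted p = 2.78e-05). PDGFA, the A chain, had 2.25, 4.40 and 2.85 CPM against 9.84, 15.7 and 13.3 CPM (2.03 ± 0.36, edgeR adjusted p = 0.00264). ESM1, the secreted proteoglycan endocan, had 0.130, 0.181 and 0.916 CPM against 8.14, 20.0 and 15.4 CPM (5.17 ± 0.85, edgeR adjusted p = 0.00128). PDGFRB, a receptor of these ligands, had 15.8, 24.5 and 12 CPM against 23.2, 34.9 and 16.0 CPM with overlapping groups. It was higher in all 3 pairs (1.47-, 1.42- and 1.34-fold) and called in the paired fit only (edgeR adjusted p = 0.0425), and PDGFRA was called in neither (log2 fold change -0.32). VEGFC, the lymphangiogenic member, rose from 4.42, 4.67 and 6.77 CPM to 21.4, 28.5 and 26.9 CPM (2.28 ± 0.53, edgeR adjusted p = 0.0262; 0.179 without uncrossed replicate 1), whereas VEGFA had 81.7, 180 and 68.3 CPM against 114, 157 and 76.2 CPM (log2 fold change 0.07, edgeR adjusted p = 0.999). FLT1, a receptor of VEGFA, was the 1 gene called lower in the paired fit, at 28.1, 51.0 and 40.6 CPM against 24.1, 17.6 and 14.7 CPM. TIE1, an endothelial receptor, rose from 0.867, 1.23 and 0.509 CPM to 4.75, 10.5 and 4.77 CPM (2.93 ± 0.68, edgeR adjusted p = 0.0256) and lost the call without crossed replicate 2 or any uncrossed library (up to 0.191). The 9 endothelial markers summed to 30.2 to 46.5 CPM in crossed and 13.5 to 25.9 CPM in uncrossed cells, and their part in these results was not tested. Of these markers PECAM1 and CDH5 were at or under 0.173 CPM, and KDR had 4.25, 2.59 and 6.82 CPM against 5.09, 3.75 and 7.45 CPM. VWF and ESAM went the other way, with means of 1.62 and 1.03 CPM in uncrossed and 1.10 and 0.735 CPM in crossed cells, and their groups overlapped. ROBO4 had 6.76, 6.94 and 16.1 CPM against 17.5, 21.1 and 32.0 CPM, higher in all 3 pairs, and was called in the paired fit only (edgeR adjusted p = 0.000311).

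Receptor tyrosine phosphatases, which remove phosphate from adhesion and growth factor receptors, gave 3 calls among 17 genes (17.6%), all higher, beside 0.949% of all genes. The paired fit called 8 higher and 1 lower, beside 6.14 and 4.96% of all genes. PTPRD, one that carries adhesion domains, rose from 0.607, 0.590 and 0.611 CPM to 6.84, 6.83 and 4.59 CPM (3.32 ± 0.47, edgeR adjusted p = 0.000263). Its antisense neighbour PTPRD-AS1 had 0 counts in the 3 uncrossed libraries and 34 in the crossed ones, at least 10.3-fold higher against a floor of 3 counts over the group. The strand setting of the counting is not given in the sources used here, so reads of a gene and its antisense partner cannot be told apart. PTPRB and PTPRE were the other two called members, and both lost the call without uncrossed replicate 1 (edgeR adjusted p up to 0.243 and 0.254 over the fits with a library left out). In the paired fit PTPRU fell, with a log2 fold change of -1.15.

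Junction genes were also called. PKP2, a desmosomal plaque protein, rose from 1.13, 0.998 and 1.63 CPM to 11.5, 16.3 and 14.1 CPM (3.48 ± 0.39, edgeR adjusted p = 9.82e-06). KRT81, a hair keratin, rose from 8.67, 54.4 and 15.6 CPM to 150, 345 and 199 CPM (3.14 ± 0.67, edgeR adjusted p = 0.0117). Its call was lost without uncrossed replicate 1 or 3 or crossed replicate 2 (up to 0.102). They were the 2 calls among 19 desmosome and keratin genes (10.5%, beside 0.949% of all genes called higher). The 8 keratinocyte markers summed to 67.9 to 112 CPM in crossed and 82.0 to 113 CPM in uncrossed cells, and their part in these calls was not tested. KRT10 had 109, 81.8 and 95.5 CPM against 67.7, 62.9 and 96.3 CPM, and KRT14 had 3.38, 0.227 and 11.5 CPM against 5.6, 2.29 and 12 CPM. SFN, an epithelial 14-3-3 protein, had 0.390, 0.0454 and 0.662 CPM against 1.07, 2.69 and 4.03 CPM, higher in all 3 pairs and called in the paired fit only (edgeR adjusted p = 0.00253). KRT5, TP63 and DSG3 were at or under 0.153 CPM, and IVL had 0 counts in all 6 libraries.

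Several signalling receptors rose together with enzymes of the cell surface. S1PR1, the sphingosine 1-phosphate receptor that steers cell egress, had 0.347, 0.363 and 0.611 CPM in uncrossed and 4.01, 8.85 and 7.71 CPM in crossed cells (3.96 ± 0.56, edgeR adjusted p = 0.000264). LPAR4, a lysophosphatidic acid receptor, had 0.434, 0.363 and 0.102 CPM against 1.98, 2.59 and 1.39 CPM (2.69 ± 0.56, edgeR adjusted p = 0.00965; up to 0.0679 without uncrossed replicate 3 or crossed replicate 2). They were the 2 calls among 20 genes of these lipid signals (10%, beside 0.949% of all genes called higher). The median of that list was -0.25. TMPRSS15, enteropeptidase, had 1.82, 2.68 and 1.68 CPM against 36.9, 62.4 and 29.5 CPM (4.38 ± 0.50, edgeR adjusted p = 1.31e-05). MME, the membrane peptidase neprilysin, had 0.130, 0.0454 and 0.305 CPM against 4.07, 9.48 and 4.42 CPM (5.21 ± 0.80, edgeR adjusted p = 0.000653). These were the 2 calls among 19 surface peptidases (10.5%, beside 0.949% of all genes called higher). NRG1, a ligand of ERBB receptors, had 1.13, 0.681 and 1.32 CPM against 10.9, 12 and 15.4 CPM (3.61 ± 0.67, edgeR adjusted p = 0.00427). It was the 1 call among 14 EGF family ligands and receptors (7.14%, beside 0.949% of all genes called higher). In the paired fit its family member TGFA moved the other way, from 540, 579 and 464 CPM to 326, 258 and 211 CPM (log2 fold change -0.99), while EGFR was called higher there, with 3.90, 7.99 and 10.1 CPM against 12.9, 21.3 and 14.7 CPM.

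Cell cytoskeleton and contractility genes gave 1 call among 42 and 9 in the paired fit, all higher. These were 2.38 and 21.4%, beside 0.949 and 6.14% of all genes called higher. PGM5, a protein of adherens-type and cell-matrix junctions, had 2 counts over the 3 uncrossed libraries and 310 over the crossed ones, a ratio of 141 with a 95% counting interval of 38.8 to 1170 that covers counting error only (edgeR adjusted p = 1.44e-05). ARHGAP29, a GTPase-activating protein for RhoA, rose from 2.91, 2.81 and 8.20 CPM to 47.1, 77.3 and 70.0 CPM (3.81 ± 0.61, edgeR adjusted p = 0.000908). MYLK, the myosin light chain kinase, was called in the paired fit only, with 5.51, 8.17 and 12.3 CPM against 22.3, 30.6 and 26.0 CPM. CAV1, the coat protein of caveolae, had 61.2, 35.1 and 102 CPM against 204, 224 and 281 CPM and was also called in the paired fit only. So were CAV2 and EHD2, which made 3 of 7 genes of caveolae (42.9%, beside 6.14% of all genes called higher there). Of 24 YAP and TEAD targets 21 were higher, beside 7572 of all 15381 genes, with a list median of 0.71 beside -0.01 over all genes. Calls numbered 2 (AJUBA and NUAK2, 8.33%) and 13 in the paired fit (54.2%), all higher. Over all genes 0.949 and 6.14% were called higher in these fits. Both AJUBA and NUAK2 lost the call without uncrossed replicate 1 (up to 0.28 and 0.188), so that 0 of 24 were called there. The paired calls included CYR61 and CTGF, known targets of YAP, with 41.6, 28.7 and 68.2 CPM against 140, 229 and 153 CPM and 12.5, 10.3 and 42.2 CPM against 63.6, 84.5 and 77.1 CPM. In both genes the lowest crossed library lay above the highest uncrossed one.

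Genes of the nucleus and of the cell cycle gave no call without pairing. As 1.33% of all genes were called there, 0 calls in a list of this size do not set it apart by its calls. Directions are given separately. Of 19 lamin and LINC complex genes 0 were called in either fit. LMNA, the lamin that sets nuclear stiffness, had 1497, 1204 and 1922 CPM in uncrossed and 1812, 1608 and 2213 CPM in crossed cells, with overlapping groups (log2 fold change 0.28, edgeR adjusted p = 0.944 without and 0.26 with pairing). Heterochromatin writers and readers gave 0 calls of 35 and 1 in the paired fit, UHRF1, with 68.1, 43.7 and 195 CPM against 123, 88.7 and 234 CPM. Of 52 genes of G2 and mitosis 51 were higher, beside 7572 of all 15381 genes, and the list median was 0.37. Of these 52, 0 were called without and 8 with pairing, led by ANLN (140, 76.7 and 288 CPM against 294, 247 and 352 CPM). Uncrossed replicate 3 held more ANLN than crossed replicate 2, and for MKI67, the proliferation marker, it held 644 CPM, above all 3 crossed libraries (384, 372 and 572 CPM). Replication genes gave 0 and 6 calls of 46 (13% with pairing), and cohesin and condensin genes 0 and 4 of 22 (18.2%). This stood beside 11.1% of all genes in the paired fit and 15.4% of the G2 and mitosis list. Of the replication genes 42 of 46 were higher, and of the cohesin and condensin genes 21 of 22. In the positive sort 37 of 52 G2 and mitosis, 39 of 46 replication and 6 of 22 cohesin and condensin genes were higher, beside 8282 of all 15381. The paired cohesin calls included STAG2 with 78.9, 88.4 and 98.7 CPM against 125, 152 and 117 CPM. Every paired call in these 4 lists was higher in crossed cells. On simulated data the unpaired fit called 30 of 100 changes of 2-fold. The paired fit called 73 of 100 on other data, simulated with paired libraries and a lower spread. The difference between these shares is therefore not the gain from pairing alone.

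**Figure D2:**
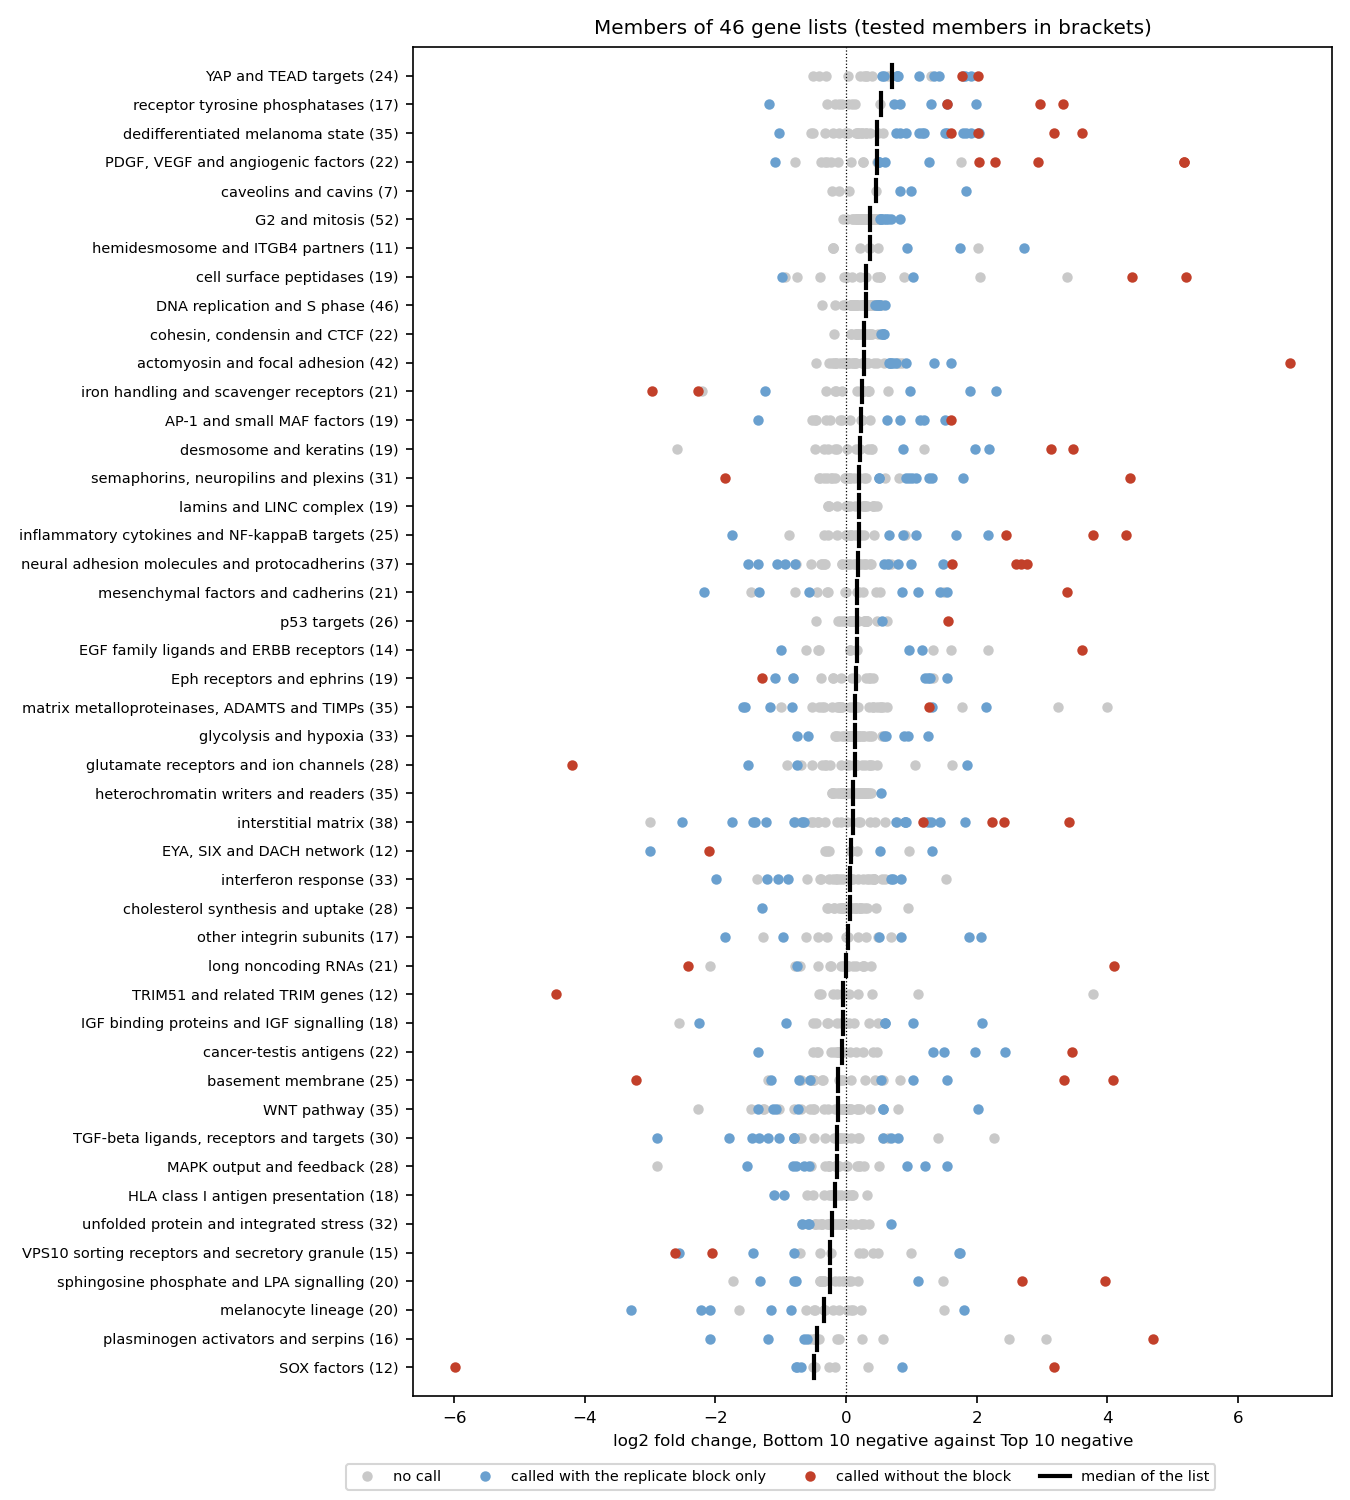
Log2 fold changes (crossed against uncrossed, horizontal axis) of the tested members of 46 gene lists, each point 1 gene, red for genes called without pairing, blue for genes called in the paired fit only, grey for no call, with the list median as a black bar. YAP and TEAD targets lie at the top with a median of 0.71 and SOX factors at the bottom with -0.49.

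Inflammatory genes gave 3 calls of 25, all higher (12%, beside 0.949% of all genes called higher). The paired fit called 8 higher and 1 lower (36%, beside 11.1% of all genes). IL1B, interleukin 1β, had 0.217, 0.318 and 0.153 CPM in uncrossed and 6.11, 6.03 and 1.65 CPM in crossed cells (4.28 ± 0.82, edgeR adjusted p = 0.0053), and CCL2, a monocyte attractant, 0.304, 0.0454 and 0.407 CPM against 3.62, 3.81 and 3.08 CPM. CXCL8, interleukin 8, had 10.7, 8.76 and 3.92 CPM against 59.3, 45.7 and 23.2 CPM (2.45 ± 0.56, edgeR adjusted p = 0.0223), a rise within equal numbers of 5.56-, 5.22- and 5.92-fold. IL1B alone of the 3 kept the call without uncrossed replicate 1, and CCL2 and CXCL8 reached 0.0856 and 0.103 over the fits with a library left out. Markers of leukocytes, the cells known for these factors, were near 0 except CD68 and LYZ, of which CD68 had 53.5, 74.7 and 22.5 CPM against 66.0, 111 and 36.9 CPM. JUN, an AP-1 subunit, rose from 13.2, 22.6 and 14.8 CPM to 38.2, 71.5 and 43.8 CPM (1.60 ± 0.38, edgeR adjusted p = 0.0296; 0.265 at most with a library left out, lost without uncrossed replicate 1 or 3 or crossed replicate 2). FOSL2, another AP-1 subunit, was called higher and MAF lower in the paired fit only. Genes of the interferon response gave 0 calls of 33 and, with pairing, 3 higher and 4 lower (21.2%). Those of HLA class I gave 0 of 18 and, with pairing, 0 higher and 2 lower (11.1%, beside 10.3% of all genes on the same base). HLA-B went from 400, 349 and 168 CPM to 189, 141 and 98.2 CPM and HLA-C from 407, 329 and 202 CPM to 201, 158 and 129 CPM, both lower in the paired fit only, and reads of these closely similar genes may be shared.

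Since AP-1 and NF-κB are known to drive CXCL8, the promoters of 3 higher genes that hold an AP-1 word are shown, from RefSeq on GRCh38.p14, each the 250 bases before the start, written 5′ to 3′ on the gene's strand with the matches in capitals. The capitals mark TGANTCA (AP-1) in all 3 and, in CXCL8, where they were searched for display, the NF-κB words GGAANTTCC and GGG, any 5 bases, CC.
CXCL8, chr4:73740319-73740568, plus strand: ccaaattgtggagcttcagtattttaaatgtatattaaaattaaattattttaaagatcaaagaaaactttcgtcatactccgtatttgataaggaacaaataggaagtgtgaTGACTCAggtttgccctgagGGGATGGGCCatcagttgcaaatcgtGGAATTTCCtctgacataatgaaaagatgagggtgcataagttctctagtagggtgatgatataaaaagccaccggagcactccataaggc
TMPRSS15, chr21:18403786-18404035, minus strand: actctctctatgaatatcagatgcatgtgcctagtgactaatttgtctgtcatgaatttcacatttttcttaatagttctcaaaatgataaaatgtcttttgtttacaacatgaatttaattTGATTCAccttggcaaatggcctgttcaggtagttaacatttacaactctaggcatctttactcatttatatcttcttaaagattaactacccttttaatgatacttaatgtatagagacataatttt
POSTN, chr13:37598769-37599018, minus strand: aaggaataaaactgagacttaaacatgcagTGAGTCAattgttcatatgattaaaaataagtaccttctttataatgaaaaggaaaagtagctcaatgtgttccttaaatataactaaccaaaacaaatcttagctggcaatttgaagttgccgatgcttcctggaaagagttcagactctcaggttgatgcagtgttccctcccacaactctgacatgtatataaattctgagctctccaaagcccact
The AP-1 word begins 137, 128 and 220 bases before the start in the 3 genes. In windows from 250 bases before to 50 after the start, searched on both strands, it was present in 9 of 109 promoters of genes called higher (8.26%), 3 of 41 called lower (7.32%) and 4.75% of 11967 promoters of genes tested. The TEAD word GGAATG was in 11, 12.2 and 11.1% in the same order, the NF-κB words in 61.5, 82.9 and 72.9%, the E-box CACGTG in 3.67, 12.2 and 9.9%, and CCAAT in 34.9, 39.0 and 36.4%. A match describes the letters of the window and is no evidence of binding.

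Pigment cell genes were mixed. The list of the dedifferentiated melanoma state held 35 genes, and 4 were called, all higher (NRG1, SOX9, JUN and AJUBA). This was 11.4%, beside 0.949% of all genes called higher, and without uncrossed replicate 1 the list held 1 call. With pairing 16 were called higher and 1 lower (48.6%, beside 11.1% of all genes). AXL, a receptor kinase of that state, had 191, 376 and 248 CPM against 490, 758 and 530 CPM, called with pairing only. Of 20 melanocyte lineage genes 0 were called without and 1 higher and 5 lower with pairing (30%, beside 11.1% of all genes). S100A1, a calcium-binding protein of this lineage, had 320, 195 and 87.5 CPM in uncrossed and 61.8, 41.3 and 25.6 CPM in crossed cells, EDNRB, the endothelin receptor of melanoblasts, 88.8, 100 and 42.5 CPM against 42.3, 40.4 and 21.3 CPM. DCT, a pigment enzyme, went the other way, from 0.867, 2.86 and 2.60 CPM to 4.58, 12.1 and 5.33 CPM. SOX10 (log2 fold change -0.48) and MITF (-0.34) were called in neither fit. SOX8, its neural crest relative, had 7.29, 14.2 and 2.60 CPM against 0.0565, 0.232 and 0.0433 CPM (-5.99 ± 1.13, edgeR adjusted p = 0.00448; 0.0126 without uncrossed replicate 1), and SOX9 had 0.0867, 0.363 and 0.815 CPM against 3.39, 4.48 and 3.55 CPM (3.19 ± 0.70, edgeR adjusted p = 0.0168). SOX9 lost its call without uncrossed replicate 1 or 2 or crossed replicate 2 (up to 0.146). These 2 opposite calls were the only ones among 12 SOX genes (16.7%, beside 1.33% of all genes).

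Developmental regulators were among the genes that were lower in crossed cells. EYA1, a transcriptional coactivator with phosphatase activity, went down from 59.5, 55.9 and 62.0 CPM to 16.4, 9.98 and 14.9 CPM (-2.11 ± 0.30, edgeR adjusted p = 0.000264). BARX1, a homeobox factor, fell from 105, 50.6 and 43.2 CPM to 17.8, 12.4 and 13.6 CPM (-2.18 ± 0.43, edgeR adjusted p = 0.00633; up to 0.0753 without uncrossed replicate 1 or crossed replicate 2). TFAP2B, a neural crest AP-2 factor, had 501, 564 and 261 CPM against 78.0, 53.9 and 34.2 CPM and was called in the paired fit only (-3.0 ± 1.01, edgeR adjusted p = 0.2 without the term). Its groups did not overlap, and the spread was within each side.

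Other genes lower in crossed cells came from several lists. SCARA5, a ferritin receptor, fell from 31.4, 31.1 and 38.1 CPM to 6.05, 2.22 and 4.55 CPM (-2.98 ± 0.50, edgeR adjusted p = 0.0017), and LRP3, a member of the LDL receptor family, from 31.8, 22.4 and 27.7 CPM to 5.99, 4.08 and 6.97 CPM (-2.27 ± 0.36, edgeR adjusted p = 0.000919). They were the 2 calls among 21 iron and scavenger receptor genes (9.52%, beside 0.384% of all genes called lower). SORCS1, a sorting receptor of the VPS10 family, fell from 50.4, 89.4 and 63.3 CPM to 11.4, 12.9 and 8.84 CPM (-2.62 ± 0.61, edgeR adjusted p = 0.0274), but kept the call in 1 of 6 fits, that without uncrossed replicate 1 (up to 0.144). TESC, a calcium-binding protein, fell from 71.3, 48.2 and 29.0 CPM to 5.99, 3.15 and 3.34 CPM (-3.58 ± 0.71, edgeR adjusted p = 0.00696; 0.0449 without uncrossed replicate 1 and up to 0.0711 without crossed replicate 2 or 3). PALD1, a putative phosphatase named paladin, had 9.58, 9.07 and 9.67 CPM against 1.87, 1.82 and 2.21 CPM (-2.26 ± 0.40, edgeR adjusted p = 0.00264). EPHB3, a receptor for ephrins, had 31.2, 28.8 and 26.2 CPM against 12.2, 10.0 and 13.3 CPM (-1.28 ± 0.25, edgeR adjusted p = 0.0061, and 0.0679 without crossed replicate 2). It was the 1 call of 19 Eph and ephrin genes (5.26%, beside 1.33% of all genes). EPHA2 was higher (129, 185 and 257 CPM against 435, 695 and 530 CPM) and EPHA3 lower in the paired fit only. LRRK2, a kinase known from Parkinson disease, had 24.7, 22.5 and 22.7 CPM against 7.01, 5.14 and 4.98 CPM (edgeR adjusted p = 0.0369), but lost the call whichever 1 library was left out (up to 0.224), and so did SEMA3G, a semaphorin (up to 0.248). NTSR1, GRM8, A4GALT and PCSK1N were called lower as well and lost the call in 3 to 4 of 6 fits, with edgeR adjusted p up to 0.168, 0.242, 0.0681 and 0.364.

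Some feedback and growth-factor pathway genes were called in the paired fit only. Of 28 genes of MAPK output 0 were called without the term and 3 higher and 5 lower with it (28.6%, beside 11.1% of all genes). SPRY4, a feedback inhibitor of receptor kinases, had 528, 861 and 364 CPM in uncrossed and 238, 225 and 152 CPM in crossed cells, without overlap. Among 30 TGF-β genes the paired fit called 3 higher and 8 lower (36.7%), PMEPA1, a feedback inhibitor, going from 234, 297 and 93.3 CPM to 69.4, 68.5 and 41.6 CPM and ID3, a BMP target, from 111, 66.1 and 71.6 CPM to 31.9, 20.2 and 39.0 CPM. BMP7, a ligand, had 1.99, 2.31 and 2.24 CPM against 0.226, 0.365 and 0.260 CPM and was called in the paired fit only (edgeR adjusted p = 0.0727 without the term). SERPINA3, a secreted protease inhibitor, had 2136, 1430 and 510 CPM against 491, 352 and 116 CPM: the groups overlapped in no library yet spread widely, and within equal numbers the crossed level was 0.230, 0.246 and 0.227 of the uncrossed one (edgeR adjusted p = 0.628 without and 5.39e-06 with pairing). Other integrin subunits gave 4 higher and 2 lower calls of 17 with pairing (35.3%, beside 11.1% of all genes). ITGA9 had 24.4, 56.9 and 27.6 CPM against 10.5, 12.4 and 7.10 CPM, and ITGB3 425, 712 and 460 CPM against 310, 285 and 222 CPM, both lower, and ITGB2 0.390, 0.726 and 0.713 CPM against 1.02, 2.92 and 3.68 CPM, higher.

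Whether the crossing difference was particular to the negative sort was tested as the difference between the crossing effects of the negative and the positive sort. That test called 0 of 15381 genes in edgeR and 0 in DESeq2, with 441 (2.87%) and 550 genes at an unadjusted p under 0.05, and 0 in the paired fit of the 4 groups, with 1905 (13.1%). No gene can therefore be called particular to the negative sort, which does not show that the effects were alike. In the positive sort 145 genes (0.943%) were called, 97 higher (0.631%) and 48 lower (0.312%). Of these 77 were shared with the negative sort, 59 higher and 18 lower in both, which is 37.6% of the negative and 53.1% of the positive calls. For 204 of the 205 genes the positive sort had the same direction, beside 52.8% of all genes tested. For 167 of the 205 its 3 and 3 libraries did not overlap in that direction. The matching share over all genes was not counted for the positive sort. The sorts share no library, but libraries of equal replicate number on the same side of the membrane correlated between the sorts by 0.278 to 0.791 after group means were removed, so they are not independent and these counts are a description. FOXP1 (log2 fold change 2.98), ZFPM2 (2.12), TMPRSS15 (4.26) and EYA1 (-2.51) were called there, and FBXL7 (1.85), PXDN (2.00), BTBD11 (2.25) and PKP2 (1.68) were called with smaller values than the 3.22, 4.09, 5.63 and 3.48 of the negative sort, differences that did not pass the test. PCDH17, a protocadherin, rose from 6.16, 9.94 and 12.7 CPM to 29.1, 30.0 and 29.7 CPM in the negative sort (1.62 ± 0.31, edgeR adjusted p = 0.00512; 0.0548 without uncrossed replicate 1) and had a log2 fold change of 0.16 in the positive sort (edgeR adjusted p = 0.945).

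**Figure D3:**
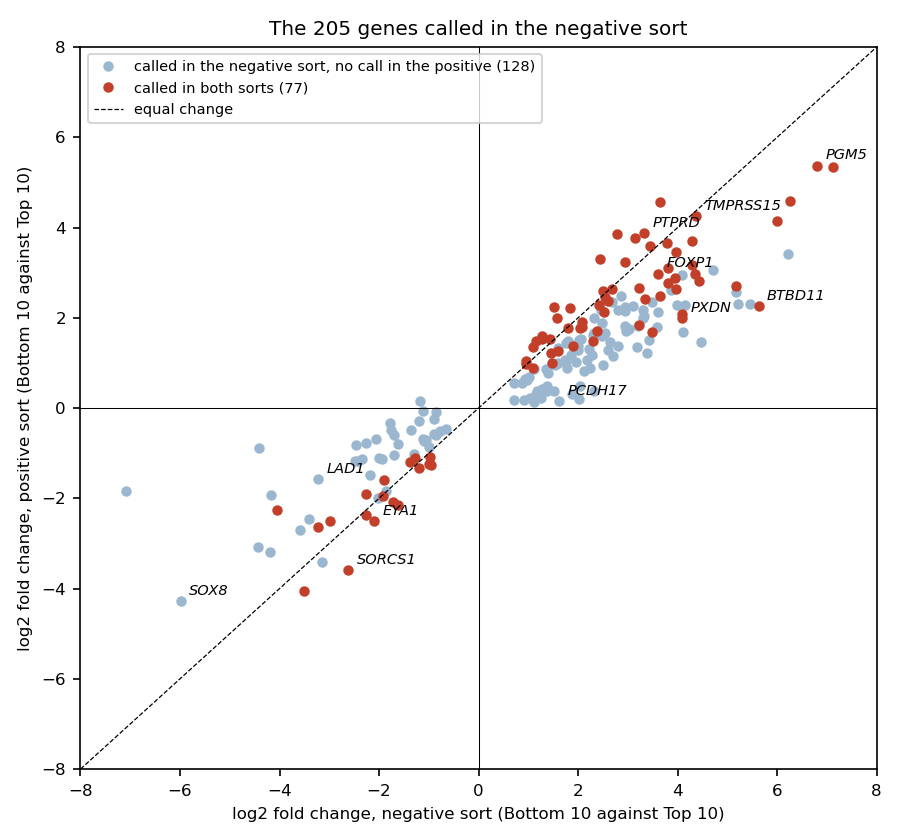
Log2 fold change of the 205 genes called in the negative sort (horizontal axis) against their value in the positive sort (vertical axis), red for the 77 called in both. All but 1 point lie in the quadrants of equal sign.

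Set beside parental negative cells, the named genes departed on different sides. PXDN had a mean of 10.6 CPM in parental negative, 2.78 in uncrossed and 47.6 CPM in crossed cells. For FOXP1 the means were 4.54, 1.12 and 13.6 CPM, and for EYA1 39.4, 59.1 and 13.8 CPM. TMPRSS15 had 3.83, 2.06 and 42.9 CPM, so that its crossed level stood furthest from the other two groups. UCA1, a long noncoding RNA, had 21.2, 0.687 and 11.5 CPM, and its call was lost in 5 of 6 fits (up to 0.268). Its uncrossed mean stood furthest away, but parental replicates 1 to 3 spread over 3.57, 25.7 and 34.4 CPM. L1CAM, a neural adhesion molecule, likewise had means of 142, 29.4 and 178 CPM, with 46.6, 182 and 197 CPM in parental replicates 1 to 3. It lost the call without uncrossed replicate 1 or 2 or crossed replicate 2 (up to 0.158). The fits against parental negative cells called 50 genes (0.325%) for crossed cells, 21 higher (0.137%) and 29 lower (0.189%), and 7 (0.0455%), all lower, for uncrossed cells, and both share libraries with the comparison above. The mean of the 3 parental libraries lay between the crossed and uncrossed means for 134 of the 146 genes called higher and 48 of the 59 called lower, as a description. These genes were selected for a gap between crossed and uncrossed cells, which by itself favours such a position. The share over all genes was not counted.

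**Figure D4:**
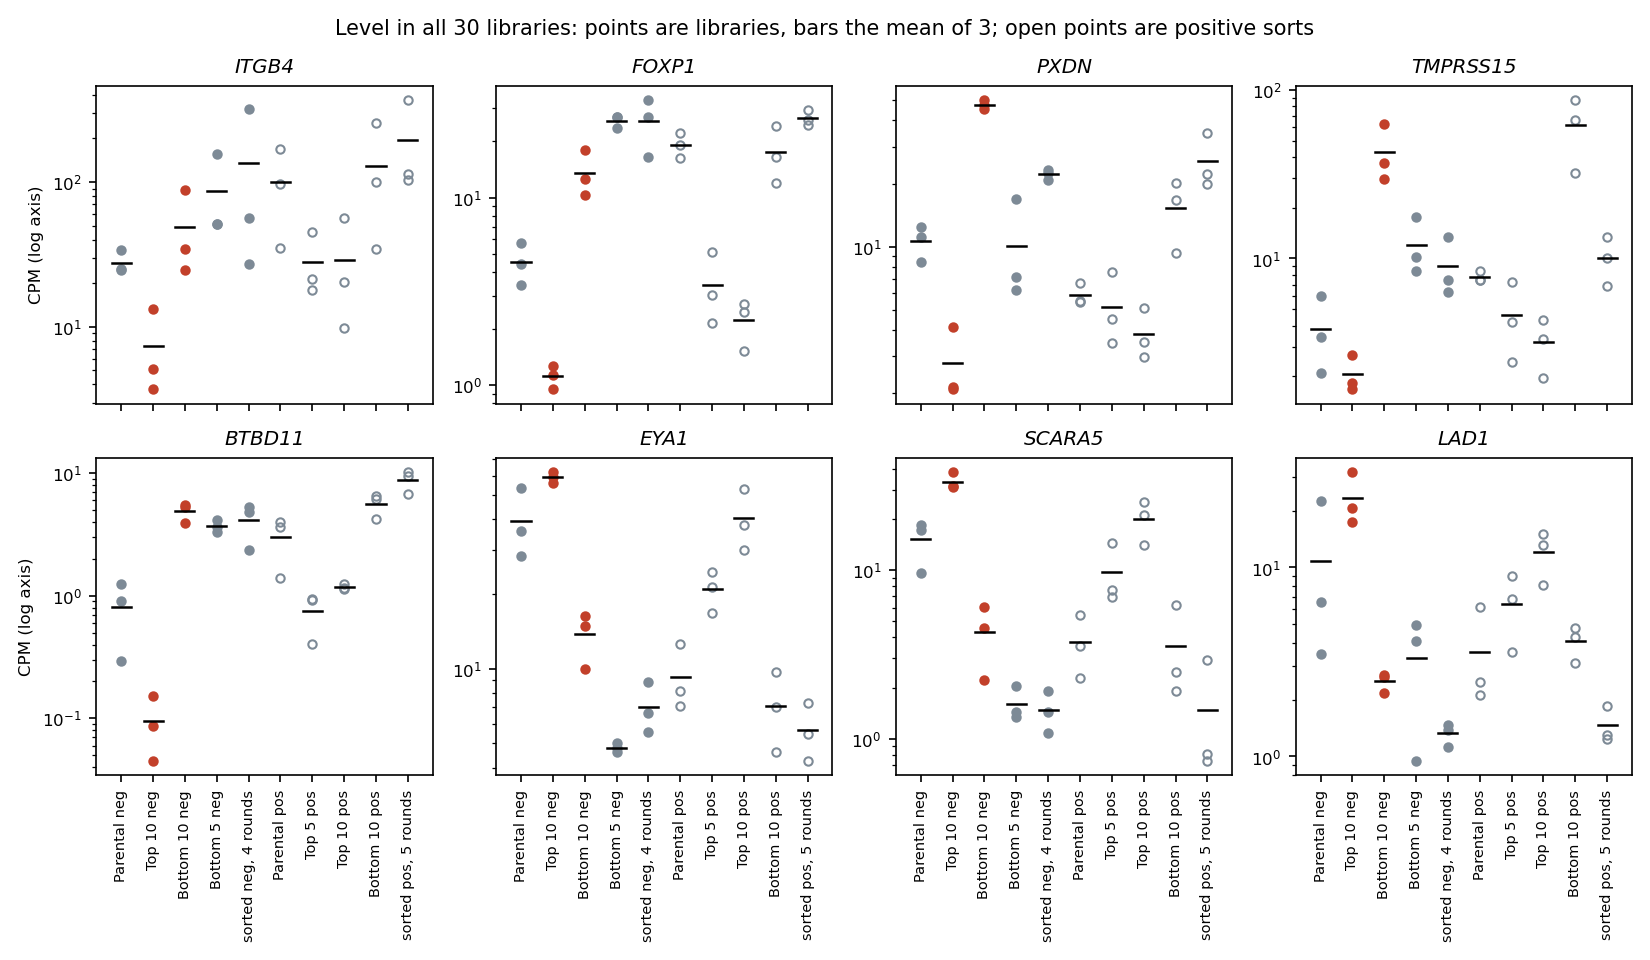
CPM (log axis) of 8 genes in all 30 libraries, points for libraries, bars for the mean of 3, red for the 6 libraries compared and open points for positive sorts. The crossed red points lie above the uncrossed ones for ITGB4, FOXP1, PXDN, TMPRSS15 and BTBD11 and below them for EYA1, SCARA5 and LAD1, with parental negative means between.

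By chromosome, the genes on chromosome 13 were lower as a set of values: the median log2 fold change of 275 genes was -0.22, with 73 of them higher, while medians of the other chromosomes lay between -0.07 and 0.10. Of the 275, 5 were called higher and 5 lower, and the paired fit called 14 higher and 37 lower. The median was -0.26 without uncrossed replicate 1 and -0.41 in the positive sort. In 239 chromosome 13 genes of at least 1 CPM, deviations from each gene's mean over the 6 libraries had medians of 0.03, 0.13 and 0.16 in uncrossed and -0.12, -0.09 and -0.12 in crossed cells on the log2(CPM + 0.5) scale, without overlap. These are RNA levels, and DNA copy number was not measured.

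**Figure D5:**
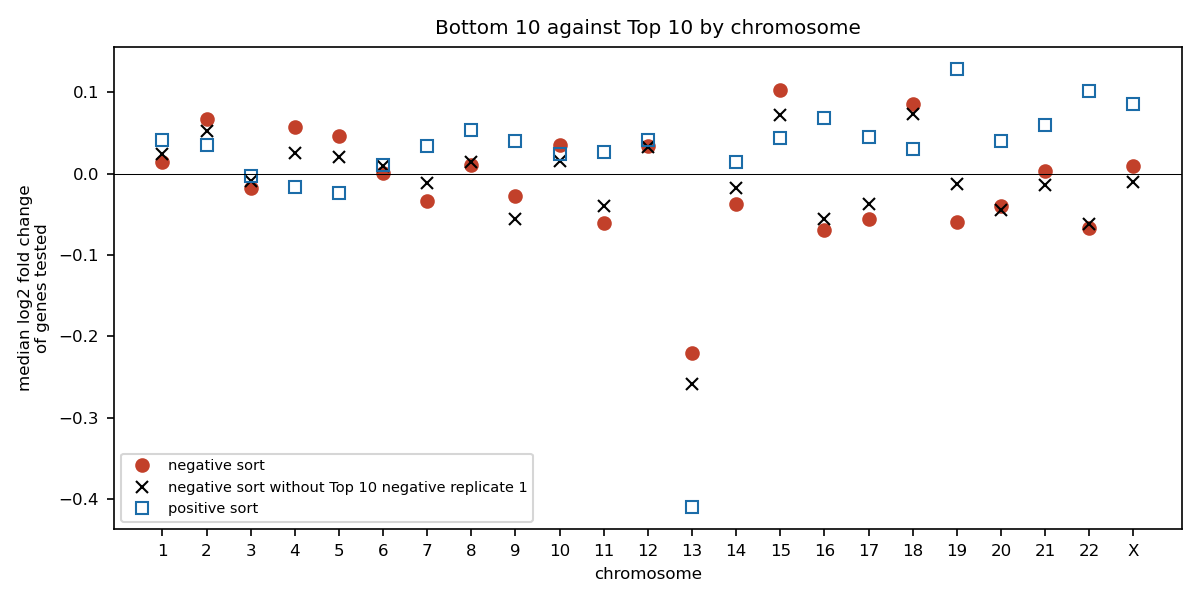
Median log2 fold change (vertical axis) of the genes tested on each chromosome, filled circles for the negative sort, crosses for the same without uncrossed replicate 1 and open squares for the positive sort. Chromosome 13 lies at -0.22, -0.26 and -0.41, away from all other chromosomes.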

How the data were processed

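Polyadenylated RNA was sequenced from 30 libraries. What the authors deposited for each library is a table of whole-number counts, not normalized, by gene symbol. Per the submitters' processing notes STAR, HTSeq, DESeq and the genome build hg19 were used, while their versions, the strand setting and the annotation are not given in the sources used here. Each table lists 26364 genes, 4210 with 0 counts in every library. Reads in no gene (11.5 to 13.2% in the 6 libraries), in several genes (1.62 to 2.02%) or in several places (7.80 to 9.16%) were left out of library sizes. No pair of libraries within a group was a copy (chi-square per degree of freedom at least 17.8).

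Genes passing the edgeR filter (minimum count 10, total 15) were fitted with edgeR 4.0.16 in R 4.3.3 (TMM, quasi-likelihood, 10 groups of 3 in 1 fit) and adjusted by Benjamini-Hochberg over all genes tested, with calls under 0.05. Levels are CPM, and ± after a log2 fold change is its SE. Alternatives were DESeq2 1.42.0, RLE factors, no filter, only the groups compared, a replicate block, leaving out libraries, and, chosen after seeing the data, leaving out 6 libraries with a second component score above 30 and counting lists without uncrossed replicate 1. The labels do not state a pairing. Libraries of equal replicate number correlated by 0.406, 0.629 and 0.692 after group means were removed (unequal numbers -0.56 to 0.07), above the limit of 0.1 for each, so replicates were taken as paired, and the paired fit holds the 2 groups. On simulated data the unpaired fit of this comparison (15162 genes) recovered 30 of 100 simulated 2-fold and 83 of 100 simulated 4-fold changes, with 7 of 120 calls false. The paired fit (14485 genes) was run on other data, simulated with a shared replicate effect and a lower spread between paired libraries. It recovered 73 and 99, with 9 of 181 false. On those data a fit of the 2 groups without the block recovered 10 and 92, with 0 of 102 false.

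Named genes were ITGB4, the 15 highest and 15 lowest called genes with 5 CPM or more in a group and no overlap, up to 4 called members of each of 46 lists and 5 marker lists, up to 3 called in the paired fit where a list had fewer than 2, and up to 10 called in both sorts. Other genes were chosen after their values were seen: ITGA6, LMNA, MKI67, VEGFA, VEGFC, FLT1, PDGFRA, PTPRU, CYR61, CTGF, AXL, LYZ, PMEL, KDR, KRT10, KRT14, PTPRD-AS1, SOX10, MITF and those of the other observations. The comparison, members and lists were chosen with earlier results of these data known. Lists were described by counts and medians, with no set test. Chromosomes and neighbours came from RefSeq GRCh38.p14 by symbol or synonym, which matched 98.1% of genes tested. Promoters with a RefSeq sequence were searched for words on both strands. The counts were made on another build, so no coordinates were taken from them. Values of some list members are not reported here.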

Additional observations from a re-analysis of the deposited data

How the results depend on the processing

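The count of 205 genes called between crossed and uncrossed negative cells was 394 with DESeq2 (253 higher, 141 lower), 208 with RLE factors, 169 without a filter, 157 with only the groups compared and 137 without the 6 libraries apart on the second component, and it ran from 91 to 157 with 1 library left out. With the replicate block it was 1587 in the 2 groups (1288, 985 and 1509 without number 1, 2 and 3) and 1355 in the 4 groups of 10 rounds (686 higher and 669 lower, 515, 116 and 1932 without number 1, 2 and 3). The share of calls that were higher was 71.2% without the block, 55.3% and 50.6% with it and 64.2% with DESeq2. ITGB4 kept its direction throughout, with a log2 fold change of 2.74 with the replicate block in the 2 groups (2.73 to 2.75 with 1 number left out) and 2.76 in the 4 groups (2.74 to 2.76), called in each, and 2.00 to 3.47 with 1 library left out, called in none. The test of the difference between sorts called 0 genes in every setting run except without replicate 1 of crossed positive cells, where it called 1, RARB (log2 difference 3.10, edgeR adjusted p = 0.0187). No gene named by rule changed direction between the main fit and another setting where either fit called it. For the genes chosen after their values were seen, direction was not followed through all settings. Of 66 named genes called, 32 kept the call in all 6 fits with a library left out, and of the 205 genes 23 kept it in none of the 6.

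In the unpaired fit most simulated 2-fold changes were missed at 3 against 3 libraries (30 of 100 called). On other data, simulated with paired libraries and a lower spread, the paired fit called 73 of 100. On those paired data a fit of the 2 groups without the block called 10 of 100. The effect of depth was not tested, and in 12 of the 146 higher and 7 of the 59 lower genes the higher group was under 1 CPM. Values of genes with near-identical copies (GAGE2A, SPANXB1, TRIM51) are uncertain, since their reads can be shared. The pairing was read from the same data as the test, and the p-values of the paired fit do not allow for that choice.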

Other observations

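The called genes outside the lists, chosen here after their values were seen, included further regulators and signalling proteins. DLC1 rose from 12.4, 20.7 and 29.4 CPM in uncrossed to 76.9, 139 and 91.2 CPM in crossed cells (2.30 ± 0.37, edgeR adjusted p = 0.000908). VGLL3, a cofactor of TEAD factors, rose from 0.434, 0.408 and 1.43 CPM to 4.13, 5.74 and 4.85 CPM (2.71 ± 0.50, edgeR adjusted p = 0.00415), PRDM1, a transcriptional repressor, by 3.33 and GFRA1, a receptor for GDNF, by 3.99 on the log2 scale. CEBPA, a differentiation factor, fell from 4.16, 3.90 and 3.41 CPM to 1.13, 1.13 and 1.08 CPM (-1.78 ± 0.31, edgeR adjusted p = 0.00259), and VAV3 from 5.94, 2.09 and 2.49 CPM to 0.622, 0.265 and 0.260 CPM (-3.22 ± 0.54, edgeR adjusted p = 0.0016). All 6 kept the call whichever of the 6 libraries was left out.

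The called gene with the most reads was GNAS, which encodes the stimulatory G protein subunit: it fell from 6016, 3975 and 4146 CPM to 2121, 1555 and 1780 CPM (-1.37 ± 0.26, edgeR adjusted p = 0.0052; 0.0508 without uncrossed replicate 1). TGM2, tissue transglutaminase, a matrix crosslinking enzyme, rose from 68.0, 85.6 and 75.0 CPM to 317, 496 and 331 CPM (2.32 ± 0.50, edgeR adjusted p = 0.0126; 0.096 without uncrossed replicate 1). Among 201 called genes with a place in the annotation, 11 pairs were next to each other in the order of the genes tested. Untested genes may lie between them. Of these pairs 10 moved in the same direction, where 146 of all 205 called genes were higher. Pairs of the same direction included POSTN with TRPC4 (3.42 and 3.80 on the log2 scale), LRP3 with CEBPA (-2.27 and -1.78) and LAMA1 with LINC00668 (3.34 and 2.87). They also included PTPRD, FLI1 and TRHDE with their antisense RNAs PTPRD-AS1, SENCR and TRHDE-AS1, where reads of the partners cannot be told apart. SLC8A1 and PKDCC moved apart (2.54 and -1.91).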
